A study of Mus musculus with 7 samples.

Results

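The RUNX factors and their partners are a set of 7 mouse genes: *Runx1*, *Runx2* and *Runx3*, their shared DNA-binding partner *Cbfb*, and the ETO family corepressor genes *Runx1t1*, *Cbfa2t2* and *Cbfa2t3*. They were chosen by name out of 21951 protein-coding genes of the GENCODE mouse release 21 annotation on GRCm38. A peak counted for a gene when the authors had given it that gene's symbol, or when it lay in the annotated gene or within 50 kb of either end. By this rule 17 of the 8949 listed peaks were at the 7 genes. A search for older symbols of the 7 genes found 0 further peaks.

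The peaks come from ATDC5, a mouse chondroprogenitor line of teratoma origin that turns toward cartilage in medium supplemented with insulin-transferrin-selenite. The 7 samples of genomic DNA fall into 5 groups: untreated progenitors at day 0 as input (1 sample) and enriched for 5-methylcytosine (5mC, 1 sample), differentiating cells at day 10 enriched for 5mC (1 sample), and differentiating cells at day 5 and at day 10 enriched for 5-hydroxymethylcytosine (5hmC, 2 samples each). All groups are of this one cell line, and their labels name no knockdown, knockout or transgene. The 5mC lists hold regions with 3-fold enrichment, the 5hmC lists regions with 10-fold enrichment in the merged samples of a day, and the headers do not name the sample compared against. The lists give positions only, with no height, count or score, so depth is unknown and there is no spread between replicates. A gene without a listed peak is therefore one where no region passed the threshold of that list, and no test over samples was possible. The days are those of the labels, from which the study's text differs, so a change of day rests on the labels.

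RUNX proteins bind DNA through the Runt domain, which reads a short string close to TGTGGTT, and CBFB, which does not touch DNA itself, strengthens that binding. RUNX2 is required for bone formation and drives the hypertrophy of chondrocytes together with RUNX3, while RUNX1 is best known from blood and is active in early mesenchyme. Each RUNX gene is transcribed from a distal promoter (P1) and a proximal promoter (P2), which give proteins with different first residues. The ETO family proteins are corepressors that became known through leukaemic fusions with RUNX1. 5mC is the methylated form of cytosine, found mostly at CpG, and 5hmC is its first oxidation product, made by TET enzymes.

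Peaks were listed at 6 of the 7 genes, where 37.1% of all protein-coding genes had a peak in any list, and 14 of the 17 were at the RUNX genes themselves. *Runx1* had 2 peaks of 5hmC at day 5 and 4 at day 10, with none of 5mC on either day. *Runx2* had 1 peak of 5mC at day 10, 2 of 5hmC at day 5 and 3 of 5hmC at day 10. *Runx3* had 1 peak of 5mC at day 10 and 1 of 5hmC at day 5. *Cbfb* had a single 5mC peak at day 10, *Runx1t1* and *Cbfa2t3* a single 5hmC peak each at day 10, and *Cbfa2t2* had none in any list.

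**Figure D1:**
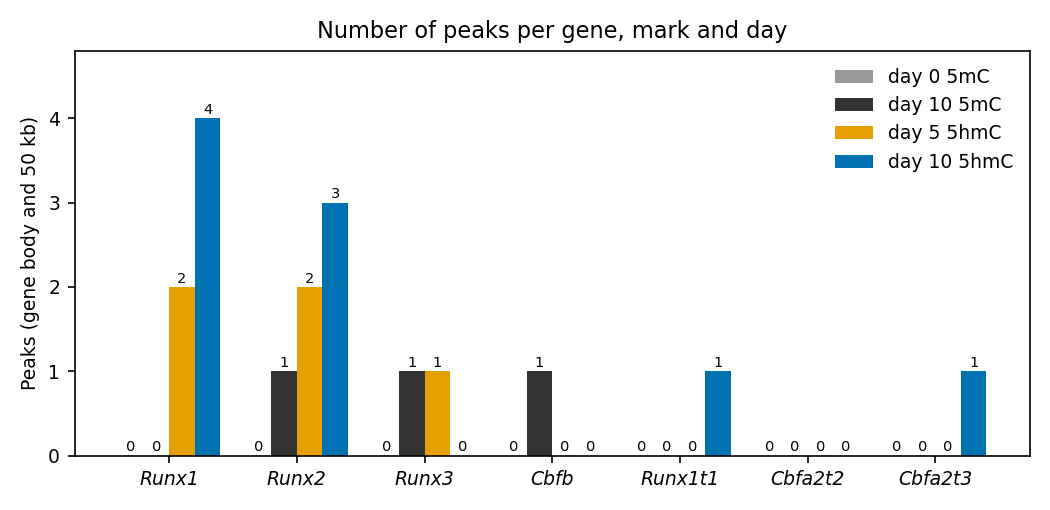
Number of listed peaks (vertical axis) at each of the 7 genes, in the gene or within 50 kb, by mark and day; the number stands above each bar. *Runx1* and *Runx2* hold 11 of the 14 peaks of 5hmC, day 0 5mC is at 0 for each gene, and *Cbfa2t2* is at 0 in each list.

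At day 0, 0 of the 7 genes had a 5mC peak, where 1.84% of all protein-coding genes had one by the same rule. At day 10, 3 of 7 had a 5mC peak against 15.9% of all genes. For 5hmC, 3 of 7 had a peak at day 5 and 4 of 7 at day 10, against 14.0% and 20.6% of all genes. Peaks of 5hmC on both days were listed at 2 of 7, *Runx1* and *Runx2*, where 7.57% of all genes had them. A day 10 5mC peak together with 5hmC of either day was listed at 2 of 7, *Runx2* and *Runx3*, where 6.91% of all genes had such a pair. The share with a peak was higher among longer genes, and 4 of the 7 genes are over 100 kb long. Among all protein-coding genes over 100 kb, the share with a peak was 27.6% for day 10 5mC, 24.8% for day 5 5hmC and 39.3% for day 10 5hmC, and 1, 2 and 3 of the 4 long genes of the set had one. Among genes of that length, 17.6% had 5hmC on both days, as had 2 of the 4, and 17.3% had day 10 5mC with 5hmC of either day, as had 1 of the 4. With 7 genes and 1 list per mark and day, these counts are a description.

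**Figure D2:**
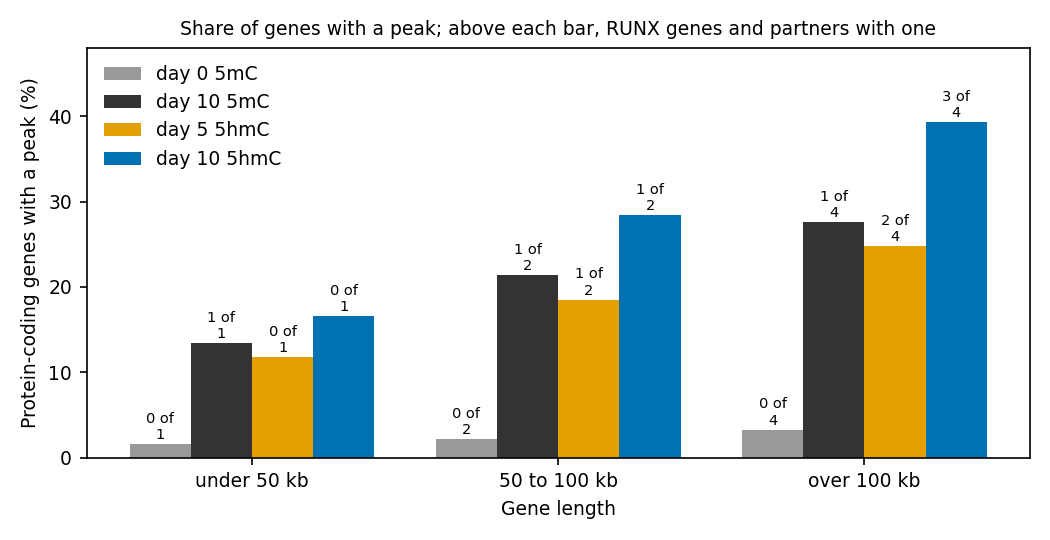
Share of all protein-coding genes with a peak (vertical axis, percent) by gene length class and list, with the number of RUNX genes and partners that have a peak out of those in that class above each bar. For day 10 5hmC the share of all genes goes from 16.6% under 50 kb to 39.3% over 100 kb.

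As a share of each list, the peaks at the 7 genes were 3 of 2401 for day 10 5mC (0.125%, 95% Wilson interval 0.0425 to 0.367%), 5 of 2058 for day 5 5hmC (0.243%, 0.104 to 0.567%) and 9 of 4164 for day 10 5hmC (0.216%, 0.114 to 0.41%). The intervals of the 5hmC days overlap. They cover counting error over peaks only.

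Most of the 17 peaks lay inside the genes. Of the 17, 16 were within a gene of the set and 15 wholly in introns, 1 overlapped a coding exon and 1 lay beyond the end of *Runx1*. The *Runx2* peaks 83.0 and 66.2 kb past its coding transcripts are counted as inside. The rule takes peaks in or near the genes, and no share of all listed peaks within genes is given for comparison. Only 1 was within 5 kb of a coding transcript start of its own gene. The map of the peaks along each gene shows them spread over the length of *Runx1* and *Runx2*, on both sides of P2.

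**Figure D3:**
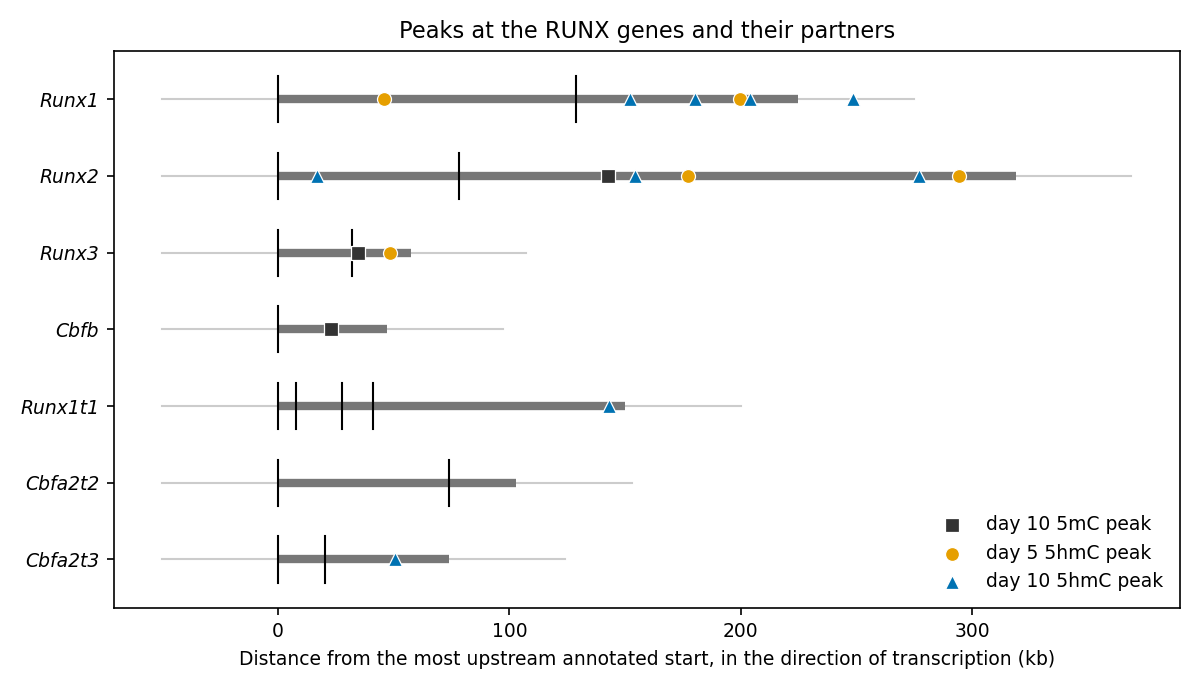
Position of the 17 peaks along the 7 genes, as distance in kb from the most upstream coding transcript start (horizontal axis). Thick lines are the annotated genes, thin lines the 50 kb on each side, and black ticks the groups of coding transcript starts; for the RUNX genes these are P1 at 0 and P2 at 128.8 kb (*Runx1*), 78.1 kb (*Runx2*) and 31.8 kb (*Runx3*).

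*Runx1* (ENSMUSG00000022952, chr16:92601466-92826149, minus strand, 224.7 kb) had 4 day 10 5hmC peaks within 50 kb, where *Runx2* had 3. Inside the genes both had 3, and within 100 kb *Runx2* had 5 and *Runx1* 4. At day 5 its 5hmC peaks were 998 bp wide at chr16:92779813-92780810, in the long intron between P1 and P2 and 44968 bp from the P1 start, and 933 bp wide at chr16:92626173-92627105, in intron 4 of 5 of the transcript named in the authors' row. At day 10 the 4 peaks were 232 bp wide at chr16:92622043-92622274 (intron 4), 143 bp wide at chr16:92645768-92645910 (intron 3), 141 bp wide at chr16:92673980-92674120 (intron 2) and 193 bp wide at chr16:92577362-92577554, which has no symbol in the list and lies 23912 bp past the 3′ end. The 4 regions were apart from both day 5 regions: the closest pair was 3.9 kb apart, in intron 4. The intron between P1 and P2, which had a peak at day 5, had none at day 10, and all 4 day 10 peaks lay downstream of P2. Among all protein-coding genes, 5.69% had 2 or more day 10 5hmC peaks and 0.802% had 4 or more. Its 6 peaks of 5hmC over both days were matched or exceeded by 0.569% of all genes and by 3.05% of those over 100 kb.

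The *Runx1* day 10 peaks differed in how many CpG they held, the positions where 5hmC usually sits. The richest and the poorest in number are shown with each CpG in capitals, read on the plus strand of GRCm38 from the RefSeq assembly.
Runx1, day 10 5hmC, chr16:92622043-92622274: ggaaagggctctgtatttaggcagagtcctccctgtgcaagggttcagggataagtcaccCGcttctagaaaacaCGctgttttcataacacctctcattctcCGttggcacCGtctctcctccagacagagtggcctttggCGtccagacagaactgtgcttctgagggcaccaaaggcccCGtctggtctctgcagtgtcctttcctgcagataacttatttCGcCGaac
Runx1, day 10 5hmC, chr16:92673980-92674120: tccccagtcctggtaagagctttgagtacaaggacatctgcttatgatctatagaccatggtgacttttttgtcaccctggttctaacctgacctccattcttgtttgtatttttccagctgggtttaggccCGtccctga

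The first has 8 CpG in 232 bp, or 3.45 per 100 bp, and 10.8% of the day 10 5hmC list was at least as dense. The second has 1 CpG in 141 bp, or 0.71 per 100 bp, and 88.6% of the list was at least as dense. The remaining peaks of *Runx1* at day 10 had 4.20 CpG per 100 bp in intron 3 and 2.59 beyond the 3′ end, and both day 5 peaks lay lower, at 1.71 and 1.5.

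*Runx2* (ENSMUSG00000039153, chr17:44495987-44814797, minus strand, 318.8 kb) had peaks in 3 lists. It was the only gene of the set to do so within 50 kb, and within 100 kb *Runx3* did so as well. Its day 10 5mC peak, 942 bp wide at chr17:44671571-44672512, lay in intron 3 of 6 and 62.2 kb from the nearest coding start, at P2. At day 5 the 5hmC peaks were 634 bp wide at chr17:44637080-44637713, in intron 5, and 1268 bp wide at chr17:44519689-44520956. At day 10 they were 135 bp wide at chr17:44660539-44660673, in intron 3, 137 bp wide at chr17:44797635-44797771, in intron 2 of 8, and 223 bp wide at chr17:44537614-44537836. The 137 bp peak lay between P1 and P2, 16.5 kb from the P1 start, and also inside *Supt3*, a transcription cofactor gene that overlaps *Runx2* there. Marks did not meet at the same place: the nearest day 10 5hmC peak was 10.9 kb from the 5mC peak, the nearest day 5 one 33.9 kb, and the closest 5hmC peaks of the 2 days were 16.7 kb apart.

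The peaks at chr17:44519689-44520956 and chr17:44537614-44537836 have no symbol in the lists. They lie 83.0 and 66.2 kb past the end of the protein-coding transcripts of *Runx2*, and count as inside the gene only because a transcript annotated as subject to nonsense-mediated decay reaches that far. Measured from the coding transcripts alone, *Runx2* would have 1 peak of 5hmC at day 5 and 2 at day 10.

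The *Runx2* 5hmC peaks at day 10 ran from 0 to 6 CpG. The peak between P1 and P2 is printed because it holds 0 CpG, as do 6.56% of the day 10 5hmC list. The intron 3 peak, downstream of P2 and printed for comparison, holds 4, shown in capitals (both plus strand).
Runx2, day 10 5hmC, chr17:44797635-44797771: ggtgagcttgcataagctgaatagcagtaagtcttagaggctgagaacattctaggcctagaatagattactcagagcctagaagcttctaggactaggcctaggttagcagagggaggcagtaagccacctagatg
Runx2, day 10 5hmC, chr17:44660539-44660673: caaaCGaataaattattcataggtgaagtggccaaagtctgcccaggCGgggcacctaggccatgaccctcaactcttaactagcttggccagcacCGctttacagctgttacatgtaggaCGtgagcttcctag

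In the first, 38.0% of the bases are marked as repeat in the reference, and in the second none are. CpG density was 0.00 and 2.96 per 100 bp, and the third day 10 peak had 2.69. The *Runx2* 5mC peak had 1.70 CpG per 100 bp, where 79.9% of the day 10 5mC list was at least as dense. Both day 5 5hmC peaks, at 1.26 and 1.03, were below the median of their list (1.61).

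*Runx3* (ENSMUSG00000070691, chr4:135120652-135177990, plus strand, 57.3 kb) had the only peak of the set that reached an exon. This day 10 5mC peak, 1181 bp wide at chr4:135154699-135155879, began 2.2 kb past the P2 start and held 41 CpG. Of its bases, 157 are coding, 0 are in an untranslated region of a coding transcript and 1024 are intronic. At 3.47 CpG per 100 bp it was above the upper quartile of the day 10 5mC list (3.04), and 14.5% of that list was at least as dense. Its stretch of 150 bp with the most CpG holds 14, in capitals, and lies wholly in coding sequence, in an exon that codes for part of the Runt domain.
Runx3, day 10 5mC, chr4:135155287-135155436: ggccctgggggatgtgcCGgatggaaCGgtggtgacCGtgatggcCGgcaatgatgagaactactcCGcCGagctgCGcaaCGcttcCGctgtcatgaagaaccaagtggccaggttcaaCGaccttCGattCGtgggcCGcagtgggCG
Runx2, day 10 5mC, chr17:44672005-44672154: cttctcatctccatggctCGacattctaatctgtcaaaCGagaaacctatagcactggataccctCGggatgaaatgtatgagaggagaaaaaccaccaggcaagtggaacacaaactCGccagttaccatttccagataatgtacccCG

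The *Runx2* stretch, chosen in the same way from its intronic 5mC peak, holds 5 CpG and is printed for comparison. The single 5hmC peak of *Runx3*, at day 5, was 919 bp wide at chr4:135168749-135169667, in intron 4 of 5, and had 20 CpG (2.18 per 100 bp, with 20.3% of the day 5 list at least as dense). It lay 12.9 kb downstream of the 5mC peak. No day 10 5hmC peak was within 50 kb of *Runx3*, and the nearest was 88.2 kb upstream.

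Just outside the 50 kb limit, the *Runx3* upstream side held a region listed on both days. A 588 bp day 5 5hmC peak at chr4:135031951-135032538, 88.1 kb away and with 17 CpG, contained 2 day 10 peaks of 165 and 128 bp with 3 and 9 CpG. A further day 10 peak lay 91.4 kb downstream and carries the symbol *Clic4*. Downstream of *Runx2*, day 10 5hmC peaks of 147 and 197 bp lay 52.2 and 64.2 kb away. The most distant peak inside the limit was that of *Runx1* at 23912 bp.

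*Cbfb* (ENSMUSG00000031885, chr8:105170674-105217989, plus strand, 47.3 kb) had 5mC only. Its day 10 5mC peak was 995 bp wide at chr8:105193073-105194067, in intron 3 of 5 and 22.1 kb from the start. It held 16 CpG (1.61 per 100 bp), and 50.2% of its bases are marked as repeat, against a median of 14.0% over the day 10 5mC list. The 150 bp of it with the most CpG hold 8 and are all within a marked repeat, which is why they are shown.
Cbfb, day 10 5mC, chr8:105193446-105193595: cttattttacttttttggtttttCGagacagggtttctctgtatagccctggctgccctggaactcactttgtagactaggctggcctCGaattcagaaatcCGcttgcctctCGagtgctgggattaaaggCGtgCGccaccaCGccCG

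Reads from such a stretch can match other copies in the genome, although the authors used only alignments above a mapping quality cutoff. The part of this stretch in the peak was not tested. The nearest 5hmC peaks to *Cbfb* were 162.4 kb away at day 10 and 1074.8 kb away at day 5.

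The ETO family genes had 2 peaks in all, both of 5hmC at day 10. *Runx1t1* (ENSMUSG00000006586, chr4:13743436-13893649, plus strand, 150.2 kb), which encodes ETO, had a 132 bp peak at chr4:13886478-13886609, in the last intron (10 of 10) and 143.1 kb from its most upstream start. It held 2 CpG, or 1.52 per 100 bp. *Cbfa2t3* (ENSMUSG00000006362, chr8:122625141-122699109, minus strand, 74.0 kb), which encodes the corepressor MTG16, had a 122 bp peak at chr8:122648405-122648526, in intron 2 of 11. This was the narrowest peak of the set and the densest in CpG, with 6 in 122 bp or 4.92 per 100 bp, and 2.31% of the day 10 5hmC list was at least as dense. The predicted gene *Gm20388* is annotated over the same position. Nearest day 5 5hmC peaks were 2727.7 kb from *Runx1t1* and 256.0 kb from *Cbfa2t3*.

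*Cbfa2t2* (ENSMUSG00000038533, chr2:154436481-154539356, plus strand, 102.9 kb), which encodes the corepressor MTGR1, had no peak. The closest of any list was a 243 bp day 10 5hmC peak 168.8 kb away, followed by 5mC at day 10 (1333.5 kb), 5hmC at day 5 (1528.3 kb) and 5mC at day 0 (3597.2 kb). For the other 6 genes the nearest day 0 5mC peak was between 547.8 kb (*Runx1*) and 5831.2 kb (*Runx3*) away.

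The 5hmC regions of the set did not coincide between the days. Of the 5 day 5 peaks, 0 overlapped a day 10 5hmC peak, and of the 9 day 10 peaks, 0 overlapped a day 5 one. Over the whole lists, 29.6% of day 5 peaks and 17.1% of day 10 peaks overlapped a peak of the other day by at least 1 bp. Counting 5mC as well, 0 of the 17 peaks overlapped a peak of any other list. At *Runx1* and *Runx2*, where both days had 5hmC, the listed regions were likewise separate. With 5 and 9 peaks, 0 overlaps cannot be set apart from the shares over the lists.

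Peak widths followed the lists. Day 5 5hmC peaks at the 7 genes were 634 to 1268 bp wide with a median of 933 bp, against 819 bp over the list, and day 10 ones were 122 to 232 bp wide with a median of 141 bp, against 147 bp. The 5mC peaks, 942 to 1181 bp wide, had a median of 995 bp against 1010 bp. CpG density at day 10 was above the list median of 1.80 per 100 bp in 6 of the 9 5hmC peaks, whose median was 2.69. At day 5 it was above the list median in 2 of 5 (median 1.5), and for 5mC in 1 of 3 (median 1.70 against 2.42). The plot of CpG density against width shows the *Runx2* peaks at both extremes of the day 5 widths and *Cbfa2t3* as the narrowest at day 10. Day 0 5mC regions, of which none was at these genes, were CpG-poor, with a median of 0.52 per 100 bp, and 78.7% of their bases were marked as repeat at the median.

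**Figure D4:**
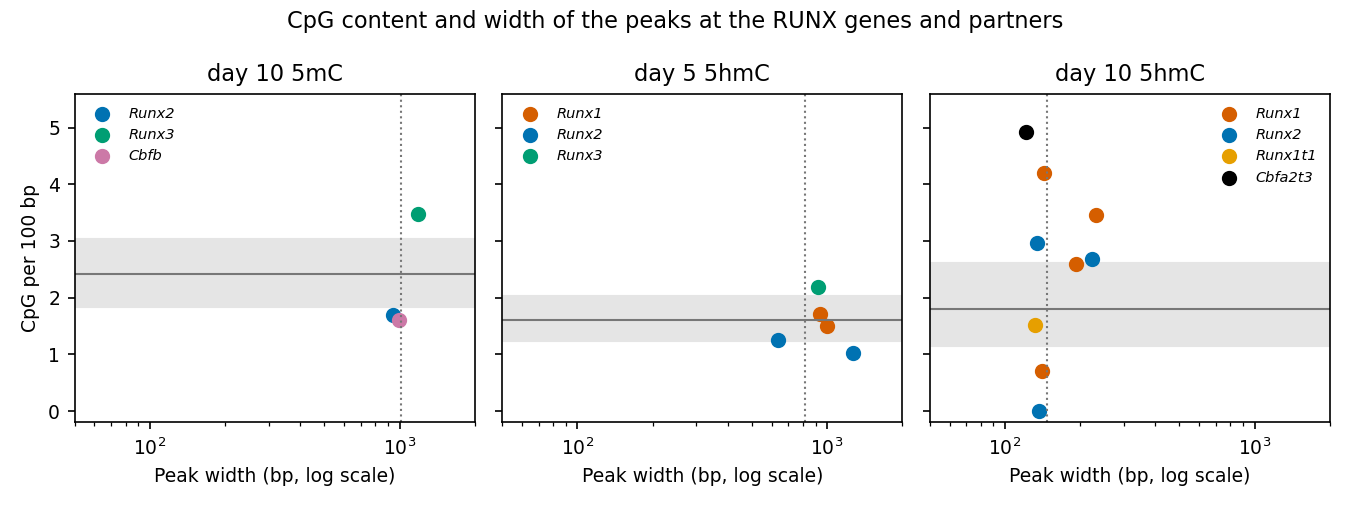
CpG per 100 bp (vertical axis) against peak width in bp (horizontal axis, log scale) for the peaks at the 7 genes, in a panel per list and coloured by gene. The grey line and band are the median and the quartiles of CpG density over the whole list, and the dotted line is its median width; 6 of 9 day 10 5hmC peaks lie above the grey line, against 2 of 5 at day 5 and 1 of 3 for 5mC.

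Starts of transcription were mostly far from these peaks. Within 5 kb of an annotated start of any protein-coding gene were 1 of 3 day 10 5mC peaks, 0 of 5 day 5 5hmC peaks and 2 of 9 day 10 5hmC peaks, against 30.2%, 24.2% and 20.9% of the lists. The median distance was 68.4 kb for day 5 5hmC and 49.6 kb for day 10 5hmC, where the lists had 18.5 and 23.3 kb. The list values are not matched by gene length, and 11 of the 14 5hmC peaks were at the long genes *Runx1* and *Runx2*. The largest distances, 213.7 kb at day 5 and 196.9 kb at day 10, belong to the peaks past the coding transcripts of *Runx2*.

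The string bound by RUNX proteins was searched as TGTGGTT on both strands (AACCACA on the other), and none of the other strings searched contains it. It was present in 4 of the 17 peaks: 2 of 5 at day 5, 2 of 9 5hmC peaks at day 10 and 0 of 3 5mC peaks. Over the whole lists it was in 25.6%, 7.56% and 19.8% of the peaks, and in 25.7%, 7.05% and 22.1% of those as wide as the peaks at these genes. The 4 occurrences, at *Runx1*, *Runx2*, *Runx3* and *Cbfa2t3*, are shown in capitals with up to 45 bases on either side within the peak, on the plus strand.
Runx1, day 5 5hmC, chr16:92779813-92779902: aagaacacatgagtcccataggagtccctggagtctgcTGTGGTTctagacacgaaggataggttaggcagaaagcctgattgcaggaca
Runx3, day 5 5hmC, chr4:135169262-135169358: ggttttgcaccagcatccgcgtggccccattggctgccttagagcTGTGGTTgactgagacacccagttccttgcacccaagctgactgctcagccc
Runx2, day 10 5hmC, chr17:44537760-44537836: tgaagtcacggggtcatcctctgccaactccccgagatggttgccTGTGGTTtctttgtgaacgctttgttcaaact
Cbfa2t3, day 10 5hmC, chr8:122648405-122648473: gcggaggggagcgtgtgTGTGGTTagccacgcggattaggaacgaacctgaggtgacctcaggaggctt

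The string lay within 45 bases of an edge of the peak in *Runx1*, *Runx2* and *Cbfa2t3*, and further inside in *Runx3*. A match of these letters is not a bound site, and nothing follows from it about RUNX proteins here. The AP-1 string TGAGTCA was in 3 of 5 day 5 5hmC peaks (both at *Runx1* and that at *Runx3*), where 43.1% of the list held it, in 0 of 9 at day 10 (7.97% of the list), and in the *Runx3* 5mC peak (1 of 3, 13.4% of the list). A string bound by nuclear factor I proteins, CTGCCAAG or TTGCCAAG, was in 2 of 5 day 5 peaks, 1 each at *Runx1* and *Runx2* (14.2% of the list), and in 0 of 9 at day 10 (5.0%). Neither SOX string, ACAATGG or ACAAAGG, was in any of the 17 peaks, while 27.2% of the day 5 and 5.38% of the day 10 5hmC list and 30.2% of the day 10 5mC list held one.

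Other genes had the same number of peaks in all 4 lists. For *Runx1*, 10 other protein-coding genes did, and *Atg7* (217.5 kb) and *Chst11* (210.4 kb) were among the nearest to it in length. For *Runx2* there were 14, of which *Cachd1* (252.5 kb), *Nf1* (241.9 kb) and *Nfib* (415.6 kb) were nearest, and for *Runx3* 202, with *Cxadr* (58.3 kb) and *Akap10* (58.9 kb) among the nearest. Likeness here is a summed difference of 0 over 4 peak counts.

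Genes for proteins that work with RUNX factors were looked up in the same way. Of 47 such corepressors, coactivators and binding partners, 0 had 5mC at day 0, 7 had 5mC at day 10 (14.9%), 10 had 5hmC at day 5 (21.3%) and 12 had 5hmC at day 10 (25.5%). Protein-coding genes in the same mix of length classes had a peak in 2.1%, 18.7%, 16.5% and 24.9% for the 4 lists in that order. Peaks in 2 or more lists were at 7 of the 47, against 12.7% of all protein-coding genes, a share not matched by length.

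Among the corepressors, *Ncor1*, a subunit of nuclear receptor corepressor complexes, had 1 peak of 5mC and 1 of 5hmC at day 10, and the histone deacetylase gene *Hdac7* had 1 peak in each of the 3 later lists. The *Ncor1* 5hmC peak lay 20563 bp outside the gene. At *Hdac7* the 5mC and day 5 5hmC peaks lay 44840 and 26413 bp outside. *Hdac6* had a single 1529 bp day 5 5hmC peak 462 bp from a start, which also counts for the nearby *Gata1*, and *Tle3*, of the Groucho family, had 3 at day 10, the closest 555 bp from a start. *Kat6b*, a histone acetyltransferase that acts as a coactivator, had 2 peaks of 5hmC on each day, at 4 separate places.

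Of the factors that bind RUNX proteins, *Smad3*, which carries TGF-beta signals, had 1 5hmC peak at day 5 and 3 at day 10, none overlapping. *Yap1*, the Hippo pathway coactivator, had 1 at day 5 and 2 at day 10. *Twist1*, an inhibitor of RUNX2, had 1 peak of 5mC and 1 of 5hmC at day 10, both outside the short gene. *Ets1* had a day 10 5hmC peak 551 bp from a start, *Prmt1* a 5mC peak 8085 bp from a start, and *Msx2*, a homeobox factor of bone, a 5mC peak 15066 bp from a start.

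Among known targets of RUNX2 or RUNX3 in cartilage and bone, 5hmC peaks were listed at more genes than 5mC peaks when 50 kb on each side was included. Of 34 targets, 13 had a 5hmC peak at day 5 and 13 at day 10 (38.2% each), against 13.6% and 19.7% of protein-coding genes in the same mix of length classes, and 4 had a 5mC peak at day 10 (11.8% against 15.4%). At day 0, 0 of 34 had one, where 1.8% of genes of the same lengths did. Peaks in 2 or more lists were at 9 of the 34, against 12.7% of all protein-coding genes, again not matched by length. The list was drawn up with earlier results on these data known, so these shares are a description and no independent evidence. Within the genes themselves, 5hmC peaks were at 3 of the 34 targets at day 5 (*Fgfr2*, *St3gal1* and *Ptch1*) and at 5 at day 10 (*Fgfr2*, *St3gal1*, *Vegfa*, *Tnfrsf11b* and *Pth1r*). By that rule 4.58% and 7.02% of all protein-coding genes had one, or 3.9% and 5.8% in the same mix of length classes. Day 10 5mC peaks were within 4 targets, between the 5hmC counts of the 2 days. No share of all genes by that rule is given for 5mC, and the lists differ in threshold. These counts inside the genes therefore do not settle whether the contrast with 5mC was kept there. For 5hmC, *Fgfr2* counts here only by an annotated span of 2960900 bp, and the 13 targets at day 5 include it by that span alone. Within 50 kb of its RefSeq gene of 104.4 kb it had 0 5hmC peaks at day 5. At day 10 it had 1, which lay 32376 bp outside the gene.

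**Figure D5:**
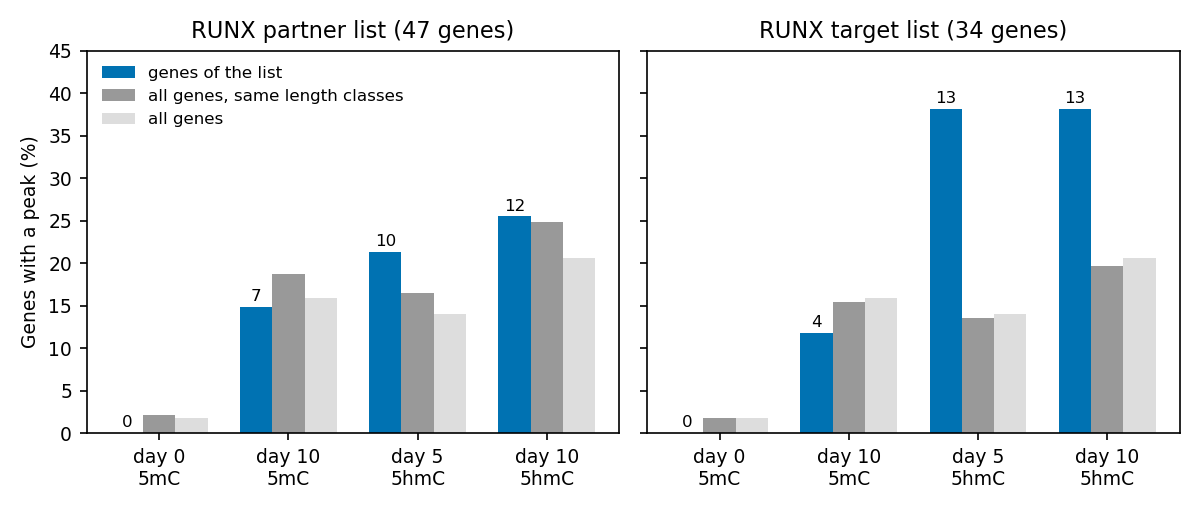
Share of genes with a peak (vertical axis, percent) for the 47 RUNX partner genes (left) and the 34 target genes (right), by list, beside all protein-coding genes in the same mix of length classes and all protein-coding genes; numbers of genes stand above the blue bars. The target bars reach 38.2% for 5hmC on both days, where genes of the same lengths are at 13.6% and 19.7%.

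*Spp1*, which encodes the bone matrix protein osteopontin, had 5 peaks of 5mC at day 10, 1 of 5hmC at day 5 and 2 of 5hmC at day 10. Only 1 of these, an 867 bp 5mC peak, was inside the gene and carried its symbol. The rest lay 8997 to 37485 bp outside it. Between 24056 and 24906 bp outside the gene, a 1309 bp day 5 5hmC peak (chr5:104465106-104466414), a 168 bp day 10 5hmC peak (chr5:104465890-104466057) and a 1324 bp day 10 5mC peak (chr5:104465956-104467279) overlapped one another. *Dmp1*, a matrix phosphoprotein gene of osteocytes that lies near *Spp1*, had 1 peak in each of the 3 later lists, at separate places. Its day 5 and day 10 5hmC peaks lay 4647 and 44066 bp outside the gene. *Fgfr1* had a 999 bp 5mC peak with 37 CpG at day 10 within the gene and a day 5 5hmC peak 27578 bp outside it.

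The 5hmC days overlapped at 5 of the 34 targets and at 1 of the 47 partner genes, against 4.41% of all protein-coding genes and, in the same mix of length classes, 4.2% for the targets and 5.4% for the partners. Besides *Spp1* these were *Tnfrsf11b*, the osteoprotegerin gene, with a pair 12562 bp outside the gene, *Galnt3*, a glycosyltransferase gene, with a pair 18782 bp outside, *St3gal1*, a sialyltransferase gene, with a pair inside the gene, and *Fgfr2*. *Fgfr2* is annotated here with a transcript that stretches it to 2960900 bp, and with it 5 peaks of 5mC at day 10, 3 of 5hmC at day 5 and 8 of 5hmC at day 10. Within 50 kb of its RefSeq gene of 104.4 kb there were 1 of 5mC and 1 of 5hmC, both at day 10, so its overlapping pair is outside that span. *Mmp14*, a collagenase gene, and *Pth1r*, the receptor for parathyroid hormone-related protein, had 1 5hmC peak on each day without overlap. Both at *Mmp14* (41394 bp at day 5 and 35923 bp at day 10) and the day 5 peak at *Pth1r* (34536 bp) lay outside the gene.

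Of targets with a peak in 1 list, *Ptch1*, the hedgehog receptor gene, had a 1062 bp day 5 5hmC peak with 30 CpG 1053 bp from a start, and *Vegfa* a 116 bp day 10 5hmC peak inside the gene. *Wnt10b* had a day 5 5hmC peak 10977 bp away. *Sost* and *Sp7*, which encodes the osteoblast factor osterix, had a day 10 5hmC peak 31260 and 34753 bp away.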

How the data were processed

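Per the labels, 5mC was enriched with the MethylCollector Ultra kit, which uses a methyl-CpG binding protein complex, and 5hmC with the Hydroxymethyl Collector kit, which tags 5hmC with a modified glucose. Per the study's methods and the submitters' processing notes, the authors trimmed reads with cutadapt, aligned them to GRCm38 with BWA, and called peaks with MACS 1.4.2 at default settings. Per the study's methods, only alignments above a mapping quality cutoff were used. The deposited files are 4 lists of peak starts and ends, 1 per enriched group, with the authors' gene symbol for part of the peaks. They hold no counts, scores or p-values. The input has no list and was not analysed here. Empty lines in the 5hmC files (27818 at day 5 and 25449 at day 10) were dropped, and no peak was filtered. All peaks lay within the chromosomes of GRCm38.

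Gene spans came from GENCODE release 21, intron numbers and sequences from RefSeq on the same build, and repeats from the lower-case bases of that assembly. Starts of coding transcripts within 5 kb of each other were grouped. Width includes the first and last base. Matching and string counting were tested on simulated data (Python 3.11.15, pandas 2.3.3, pysam 0.24.0, scipy 1.17.1). Shares have 95% Wilson intervals that cover counting error only. Partner and target genes were named when they had peaks in 2 or more lists, and otherwise up to 5 of each with the peak nearest a start. The members and gene lists were chosen with earlier results of these data known. Some genes that this rule or the likeness of peak counts would name are not reported here.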

Additional observations from a re-analysis of the deposited data

How the results depend on the processing

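Of 82 values recomputed under another setting, 63 stayed within 1.5 times the reported count or within the interval of the reported share, and 19 moved. The 63 include day 0 5mC counts of 0 and stricter versions of an overlap of 0. Most of those could not change under their setting, so the tally overstates stability. With peaks of at least the median width of their list only, day 10 5mC peaks fell to 1, at 1 gene of the set, and day 10 5hmC peaks to 3, at 2 genes. With a window of 100 kb, day 10 5hmC peaks at the set rose to 14, and 1 day 5 and 2 day 10 5hmC peaks overlapped a peak of the other day; this overlap window was chosen after seeing the data. The RUNX string was in 0 of the day 5 5hmC peaks within 200 bp around the midpoint, where 8.21% of the list held it. By its core of 6 letters, TGTGGT, it was in 4 of 5 day 5 5hmC peaks and in 3 of 3 day 10 5mC peaks. The whole lists held this core in 57.8% and 52.3% of peaks, and peaks of like width in 59.3% and 55.9%. In the gene itself only, of 47 partner genes 1 had a day 10 5mC peak, 5 a day 5 5hmC peak and 7 a day 10 5hmC peak. Of 34 target genes, 3 and 5 had 5hmC at day 5 and day 10, and day 10 5mC stayed at 4. For 5hmC on the 2 days, genes in the same mix of length classes were at 7.5% and 12.2% for partners. For targets they were at 3.9% and 5.8%, and no such share is given for 5mC. Over all 55450 annotated genes, the share with a peak was 1.54%, 12.0%, 10.6% and 16.6% for day 0 5mC, day 10 5mC, day 5 5hmC and day 10 5hmC. The fewer genes or peaks counted under each setting follow from its construction. Summed over the 7 genes, counts in each list in the gene alone, with 5 kb, by symbol, after merging peaks within 1000 bp, and from coding transcripts (the last chosen after seeing the data) stayed within 1.5 times, or at 0 for day 0. For *Runx2* alone, day 5 5hmC peaks went from 2 to 1 by symbol and from coding transcripts, and day 10 ones from 3 to 2.

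No paired analysis was possible because the 2 samples of each 5hmC day were merged into 1 list. For the same reason no sample was left out, and without scores no stricter threshold was tried.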
